A study of Homo sapiens with 3 samples.

Results

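The comparison covers 2 of the 3 arrays of the series: HT-29 cells with interferon gamma (IFN-γ) and MCF10A cells, chosen by their labels. HT-29, a human colon adenocarcinoma line, was kept in McCoy's 5A medium with 10% fetal bovine serum and received IFN-γ at 200 U/ml for 24 h. MCF10A, a human mammary epithelial line, was kept in DMEM/F12 with 5% horse serum and with epidermal growth factor (20 ng/ml), hydrocortisone (500 ng/ml), cholera toxin (100 ng/ml) and insulin (10 µg/ml), and its labels name no IFN-γ. Each line gave 1 array of total RNA, so no spread between replicates could be measured and nothing was tested. Every difference joins cell line, medium and cytokine, which cannot be told apart here. The array of MDA-MB-436, a breast adenocarcinoma line grown in L-15 medium with 10% fetal bovine serum, is given only as a level beside some genes. "HT-29" below always means the culture with IFN-γ.

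Values are array intensities on a linear scale, for 14410 genes that had a transcript cluster of their own among 18708 clusters. Background was set at an intensity of 29.9, the 95th percentile of 228 olfactory receptor genes, whose highest value was 101; a level between these is near the limit of what the arrays can show. A gene was counted when its measured intensities differed at least 4-fold and the higher was above background. Across all genes, 625 were counted as higher in HT-29 (4.34% of those compared) and 505 as lower (3.50%), and the median log2 difference was 0.11. The fold of a named gene is written as "at least" when the dimmer array was under background, and it is then computed against the background, so it can be under 4 for a gene that was counted. Of 12 measured colon markers, 8 were counted as higher in HT-29 and 0 as lower, and of 6 measured basal mammary markers, 5 were counted as lower. CDX1 was near background in HT-29 (34.8) and CDH17 was under it (21.3). Endothelial markers were under background in both lines, with a highest value of 26.9, and the leukocyte marker PTPRC was at 3.72 and 3.05, while the monocyte marker CD14 was at 38.9 in HT-29 versus 156 in MCF10A. Of 5 fibroblast markers, 2 were above background in HT-29 and 1 in MCF10A, the highest at 51.8.

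Epithelial cells of the colon and of the breast share a general plan but differ in what they move and make. Colonocytes take up water, ions and short fatty acids from the gut lumen through polarised carriers and pumps. They carry membrane mucins and peptidases on a brush border and detoxify what they absorb. Basal-type mammary cells rest on a basement membrane, which they help to build, and depend on growth factor signals. IFN-γ is a cytokine of the immune defence, and 188 genes linked to interferon were set aside as a group. Of these, 109 were counted as higher and 3 as lower. The group need not hold every gene that responds to IFN-γ, and which other genes respond to it was not tested. What follows concerns the other 14222 genes, of which 516 were counted as higher (3.63%) and 502 as lower (3.53%). Among them 3601 genes were placed in 39 lists of transporters, metabolic enzymes, transcription factors and secreted proteins, each gene in a single list. The counts of each list below are to be read beside the shares of 3.63% and 3.53%.

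**Figure D1:**
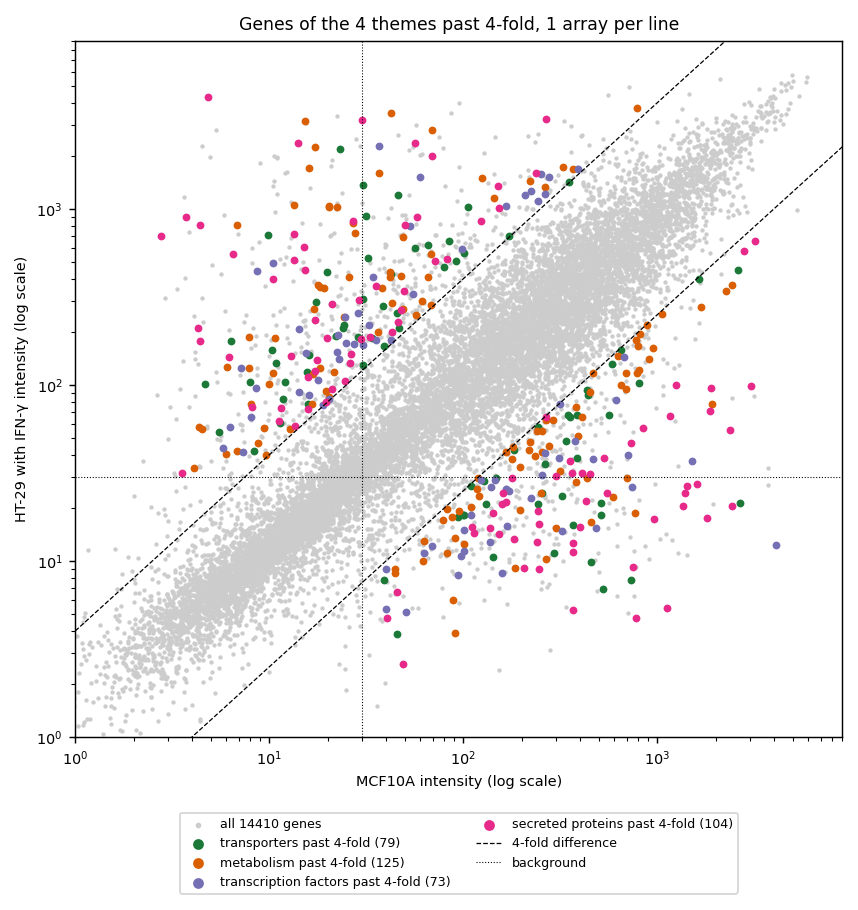
Intensity of each gene in HT-29 with IFN-γ (y axis, log scale) against MCF10A (x axis, log scale), 1 array each; coloured points are listed genes counted past 4-fold, grey points all 14410 genes, dashed lines mark a 4-fold difference and dotted lines the background of 29.9. The coloured points lie on both sides in similar numbers, with 196 higher and 185 lower.

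The promoters of the listed genes were set beside those of interferon-linked genes, to show which of them carry the short elements of the interferon response or of the amino acid stress response. RefSeq windows on GRCh38.p14, from 250 bases before to 50 bases after each annotated start, were found for 11522 of the genes. The core of the interferon-stimulated response element, TTTC, 2 bases of any kind and TTTC again on either strand, occurred in 63.8% of the interferon-linked genes counted as higher that had a window (51 of 80). It occurred in 5.92% of the listed genes counted as higher (9 of 152), in 4.96% of those counted as lower (7 of 141) and in 4.23% of all measured genes. The core of the gamma-activated site, TTCNNNGAA, was found in 32.5%, 11.2%, 16.3% and 9.38% of the same groups. Among the listed genes counted in neither direction the interferon-stimulated element occurred in 3.39%. Interferon-linked genes had been taken out before the lists were made, so nothing is read from these shares about the cytokine. The core of the element bound by ATF4 with C/EBP factors, TGATGNAA on either strand, was in 6.25%, 9.21%, 4.96% and 3.49%. The core of the glucocorticoid response element, GNACA, 3 bases of any kind and TGTNC, was in 0 of the 152 higher and 0 of the 141 lower listed genes and in 0.43% of all genes. The 4 motifs were chosen from a larger set after their shares in these groups had been seen, genes with several starts had several windows, and a match is only a match of letters.

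**Figure D2:**
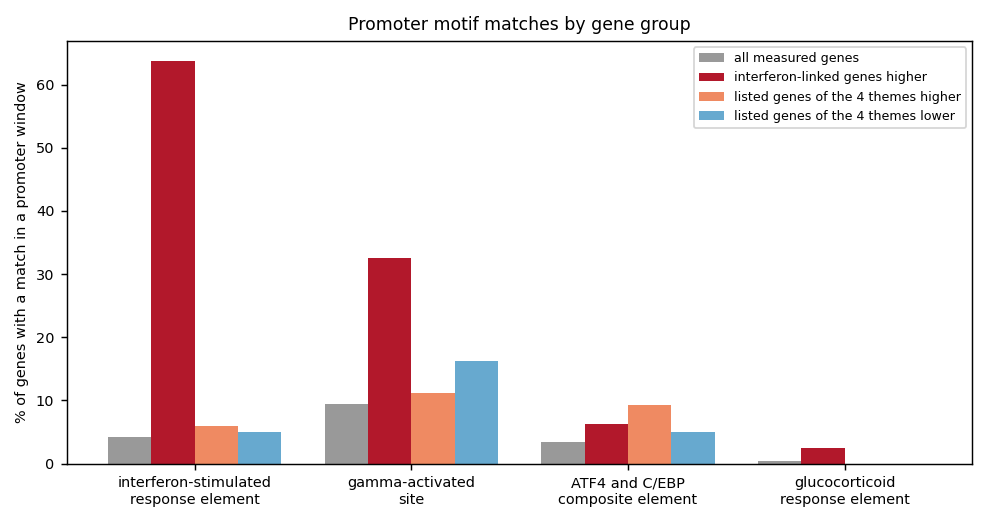
Share of genes (y axis, %) with at least 1 match to each of 4 motif cores in a promoter window, for all measured genes, for interferon-linked genes counted as higher and for listed genes counted as higher or lower in HT-29. The bar of the interferon-linked genes reaches 63.8% for the interferon-stimulated response element, against 5.92% for the listed genes counted as higher. Interferon-linked genes had been taken out of the lists beforehand, and the motifs were chosen after their shares were seen. Nothing is read from this contrast about the cytokine.

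The 250 bases before the start are shown for 4 genes, with the matched core in capitals. CXCL10, a chemokine of the interferon response, stands for the group set aside; its window is on chromosome 4, chr4:76023498-76023747, minus strand. CEACAM1, a cell surface adhesion molecule, is the brightest of the 9 listed genes counted as higher that held the interferon element (chr19:42528482-42528731, minus strand). CHAC1, which breaks down glutathione (chr15:40953221-40953470, plus strand), and ASNS, which makes asparagine (chr7:97872409-97872658, minus strand), hold the ATF4-type core and are known targets of that factor.
CXCL10: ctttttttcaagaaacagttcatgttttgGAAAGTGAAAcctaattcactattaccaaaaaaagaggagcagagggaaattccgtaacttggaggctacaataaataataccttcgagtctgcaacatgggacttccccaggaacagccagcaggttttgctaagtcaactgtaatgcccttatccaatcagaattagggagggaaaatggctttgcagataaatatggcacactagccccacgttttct
CEACAM1: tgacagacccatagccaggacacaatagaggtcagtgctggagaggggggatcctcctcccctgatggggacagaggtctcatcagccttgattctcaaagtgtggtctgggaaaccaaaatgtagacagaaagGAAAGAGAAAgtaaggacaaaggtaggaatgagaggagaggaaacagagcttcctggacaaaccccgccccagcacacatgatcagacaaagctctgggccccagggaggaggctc
CHAC1: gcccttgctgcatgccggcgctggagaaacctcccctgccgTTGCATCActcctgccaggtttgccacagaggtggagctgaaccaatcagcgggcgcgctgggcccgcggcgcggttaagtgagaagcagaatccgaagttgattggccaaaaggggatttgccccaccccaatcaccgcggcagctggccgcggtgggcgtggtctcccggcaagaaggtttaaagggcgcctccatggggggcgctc
ASNS: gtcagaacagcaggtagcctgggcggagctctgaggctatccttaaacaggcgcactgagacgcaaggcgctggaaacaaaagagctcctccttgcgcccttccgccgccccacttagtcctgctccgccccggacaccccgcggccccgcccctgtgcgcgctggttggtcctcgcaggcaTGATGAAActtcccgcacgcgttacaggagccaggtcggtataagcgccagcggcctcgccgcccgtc
The match lies 221 bases before the start in CXCL10, 116 in CEACAM1, 209 in CHAC1 and 68 in ASNS. CEACAM1 had an intensity of 1994 in HT-29 versus 68.7 in MCF10A, 29.1-fold higher; it was not among the genes the naming rule chose and was taken after its values were seen. For CHAC1 the intensities were 2783 in HT-29 versus 69.2 in MCF10A (40.2-fold higher), with 453 in MDA-MB-436. ASNS was at 1719 in HT-29 versus 328 in MCF10A, 5.24-fold higher.

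Transporters differed in both directions. Of 726 measured genes, 407 were above background in at least 1 of the 2 lines, 42 were counted as higher in HT-29 and 37 as lower, and the median log2 difference was 0.17 against 0.11 over all genes. Quantile normalization turned this median to -0.01, the same as that of all genes. As shares these are 5.79% higher and 5.10% lower, beside 3.63% and 3.53% over all genes outside the interferon-linked list. In several families one member was bright in HT-29 and another in MCF10A.

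Among carriers of organic ions, nucleosides, monocarboxylates and vitamins, 7 of 110 were higher and 6 lower. SLC44A4, which carries thiamine pyrophosphate in colonocytes, had the largest difference of this list, at 2173 in HT-29 versus 23.2 in MCF10A, at least 72.6-fold higher, and it was under background in MDA-MB-436 (26.5). SLC16A4, of the monocarboxylate carrier family, was at 909 in HT-29 versus 31.6 in MCF10A, 28.7-fold higher. SLC28A3, which concentrates nucleosides in the cell, was at 296 versus 17.4, at least 9.88-fold higher. All 3 were at or near background in MCF10A. SLC17A9, which loads nucleotides into vesicles, was at 306 versus 30.4 (10.1-fold higher), and SLC51B, a subunit of the basolateral bile acid exporter, at 209 versus 24 (at least 6.99-fold higher). On the lower side, SLCO3A1, an organic anion carrier, was at 48.2 versus 340.2 (7.06-fold lower) and at 422 in MDA-MB-436. SLC16A14, another monocarboxylate family member, was at 24.4 versus 255 (at least 8.53-fold lower), and SLC22A4, which takes up ergothioneine, at 21.2 versus 131 (at least 4.39-fold lower).

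Of 53 amino acid and peptide carriers, 6 were higher and 6 lower. SLC43A1, a carrier of large neutral amino acids, was at 1198 in HT-29 versus 46.2 in MCF10A, 25.9-fold higher, whereas SLC43A3 of the same family, a purine nucleobase carrier, was at 21.3 in HT-29 versus 2659 in MCF10A, at least 88.9-fold lower. The MDA-MB-436 array was low for both, at 76.1 and 21.7, so SLC43A1 was bright in HT-29 alone of the 3 arrays and SLC43A3 in MCF10A alone. The glutamate carriers formed a similar pair: SLC1A1 was at 159 versus 10.3 (at least 5.3-fold higher) and SLC1A3 at 16.1 versus 366 (at least 12.2-fold lower). The serine and alanine carrier SLC1A4 was at 524 versus 32.2, 16.2-fold higher, and the glycine carrier SLC6A9 at 563 versus 101, 5.56-fold higher. SLC6A15, a neutral amino acid carrier, was at 6.89 versus 524, at least 17.5-fold lower. The cystine carrier SLC7A11 was at 1893 versus 522, 3.63-fold higher and so not counted, and its partner SLC3A2 and the leucine carrier SLC7A5 were near equal, at 3031 versus 2427 and 2164 versus 2353. The peptide carrier SLC15A1 was under background in both lines.

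Sugar carriers had 5 of 24 members higher and 1 lower, 20.8% and 4.17%. The sodium-coupled glucose carrier SLC5A1 was at 104 in HT-29 versus 12.1 in MCF10A, at least 3.46-fold higher. SLC2A10 and SLC2A12, of the facilitative glucose carrier family, were at 185 versus 33.7 (5.49-fold higher) and 212 versus 46.7 (4.53-fold higher), and the widespread glucose carrier SLC2A1 was at 3223 versus 1590.1 (2.03-fold higher), not counted. The sugar phosphate carriers SLC37A1 and SLC37A2 went opposite ways, at 700.2 versus 172 (4.07-fold higher) and 21.3 versus 512 (at least 17.1-fold lower). SLC45A4 was at 257 versus 45.4, 5.66-fold higher.

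Some genes that move iron are given together here, from 2 of the lists and grouped after their values were seen. SLC40A1, the iron exporter ferroportin, was at 178 in HT-29 versus 6.35 in MCF10A, at least 5.95-fold higher. HEPH, the ferroxidase that works with it in the gut, was at 124 in HT-29 versus 7.85 in MCF10A, at least 4.16-fold higher, and the metalloreductase STEAP4 at 1041 in HT-29 versus 20.2 in MCF10A, at least 34.8-fold higher. CYBRD1, the ferric reductase named for the duodenum, was instead under background in HT-29, at 29.6 versus 433 (at least 14.5-fold lower), with 589 on the MDA-MB-436 array. The iron importers SLC11A2 and TFRC were not counted, at 154 versus 169.7 and 909.8 versus 946. Of the 35 metal and phosphate carriers, 2 were higher and 2 lower. SLC39A8, an importer of zinc and manganese, was at 102 versus 803 (7.86-fold lower) and as bright in MDA-MB-436 as in MCF10A (803). SLC41A2, a magnesium carrier, was at 502 versus 92.1 (5.45-fold higher), and SLC31A2, of the copper carrier family, at 42.9 versus 183 (4.26-fold lower).

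Of 42 ion and bicarbonate carriers, 21 were above background, 2 were higher and 1 lower. SLC12A7, a potassium chloride cotransporter, was the brighter of the higher pair, at 620.2 versus 65.6, 9.45-fold higher. SLC26A3, the chloride bicarbonate exchanger of colon epithelium, was under background in both lines (5.03 versus 4.28), and SLC9A3, the apical sodium proton exchanger, was at the background, at 30.8 versus 29, and the sign of its difference turned with quantile normalization. SLC9B2, a sodium proton exchanger, was lower in HT-29, at 67 versus 566, 8.45-fold lower. Mitochondrial and nucleotide sugar carriers had 1 of 56 higher and 2 lower and a median of -0.23; SLC35B4, a carrier of nucleotide sugars, was at 131 versus 585 (4.47-fold lower).

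ABC transporters, which use ATP to move drugs, conjugates and lipids, had 3 of 40 higher and 5 lower. ABCC3, a basolateral exporter of conjugates, was at 1018 in HT-29 versus 106 in MCF10A, 9.6-fold higher, whereas ABCC2, its apical relative, was at 10.6 in HT-29 versus 142 in MCF10A, at least 4.74-fold lower, and at 142 in MDA-MB-436. ABCG2, an exporter of many drugs, was at 133 versus 10.8 (at least 4.44-fold higher), and ABCB1 was under background in both lines. The chloride channel CFTR was at 101 versus 4.66, at least 3.38-fold higher, a level close to that of the brightest olfactory receptor gene. ABCA12, which loads lipid into the granules of keratinocytes, was at 9.84 versus 453, at least 15.2-fold lower, and was under background in MDA-MB-436 (8.27).

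Among channels, 0 of the 87 potassium channel genes were counted as higher in HT-29 and 3 as lower. Only 32 of the 87 were above background, and their median log2 difference as a list was 0.11. The lower share was 3.45%, near the 3.53% over all genes outside the interferon-linked list. The lower genes included KCNN4, the calcium-activated channel, at 38.3 versus 387 (10.1-fold lower), and KCNQ5 at 20.9 versus 242 (at least 8.08-fold lower). Of 220 other channel and connexin genes, 12 were higher and 9 lower. CLIC5, of the chloride intracellular channel family, was at 1362 in HT-29 versus 30.3 in MCF10A, 44.9-fold higher. TMC5 and TMC4, which belong to a family of transmembrane channel-like proteins, were at 713 versus 9.8 (at least 23.8-fold higher) and 602 versus 56.2 (10.7-fold higher). The calcium-activated chloride channel ANO1 was at 219.6 versus 24.2, at least 7.34-fold higher. Against these, CLCA2, a calcium-activated chloride channel regulator, was at 7.78 versus 729.6 (at least 24.4-fold lower) and the ATP-gated channel P2RX5 at 18.2 versus 512 (at least 17.1-fold lower). GJB5 and GJC1, both connexins of gap junctions, were at 23.3 versus 321 (at least 10.7-fold lower) and 11 versus 293 (at least 9.81-fold lower). A further connexin, GJB6, was counted as higher, at 104 versus 7.96 (at least 3.47-fold higher), a level close to that of the brightest olfactory receptor gene. VDAC3, a pore of the outer mitochondrial membrane, was bright in both lines but lower in HT-29, at 447 versus 2592, 5.79-fold lower.

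The ATP-driven pumps had 4 of 59 members higher and 2 lower. The beta subunits of the sodium potassium pump differed in opposite directions: ATP1B1 was at 1418 in HT-29 versus 353 in MCF10A (4.02-fold higher), and ATP1B3 at 398 in HT-29 versus 1635 in MCF10A (4.11-fold lower). Both subunits were above background in both lines, and both differences lay just past the 4-fold cut. With median centring or quantile normalization the higher count of this list was 3. MDA-MB-436 lay between the 2 lines for both, at 530.3 and 873. ATP2C2, a calcium pump of the secretory pathway, was at 438 versus 19.95, at least 14.7-fold higher. The lipid flippase ATP8B1 was at 426 versus 42.4 (10.1-fold higher), its relative ATP10B at 148 versus 16.1 (at least 4.96-fold higher) and the third family member ATP10D at 57.2 versus 243 (4.25-fold lower).

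**Figure D3:**
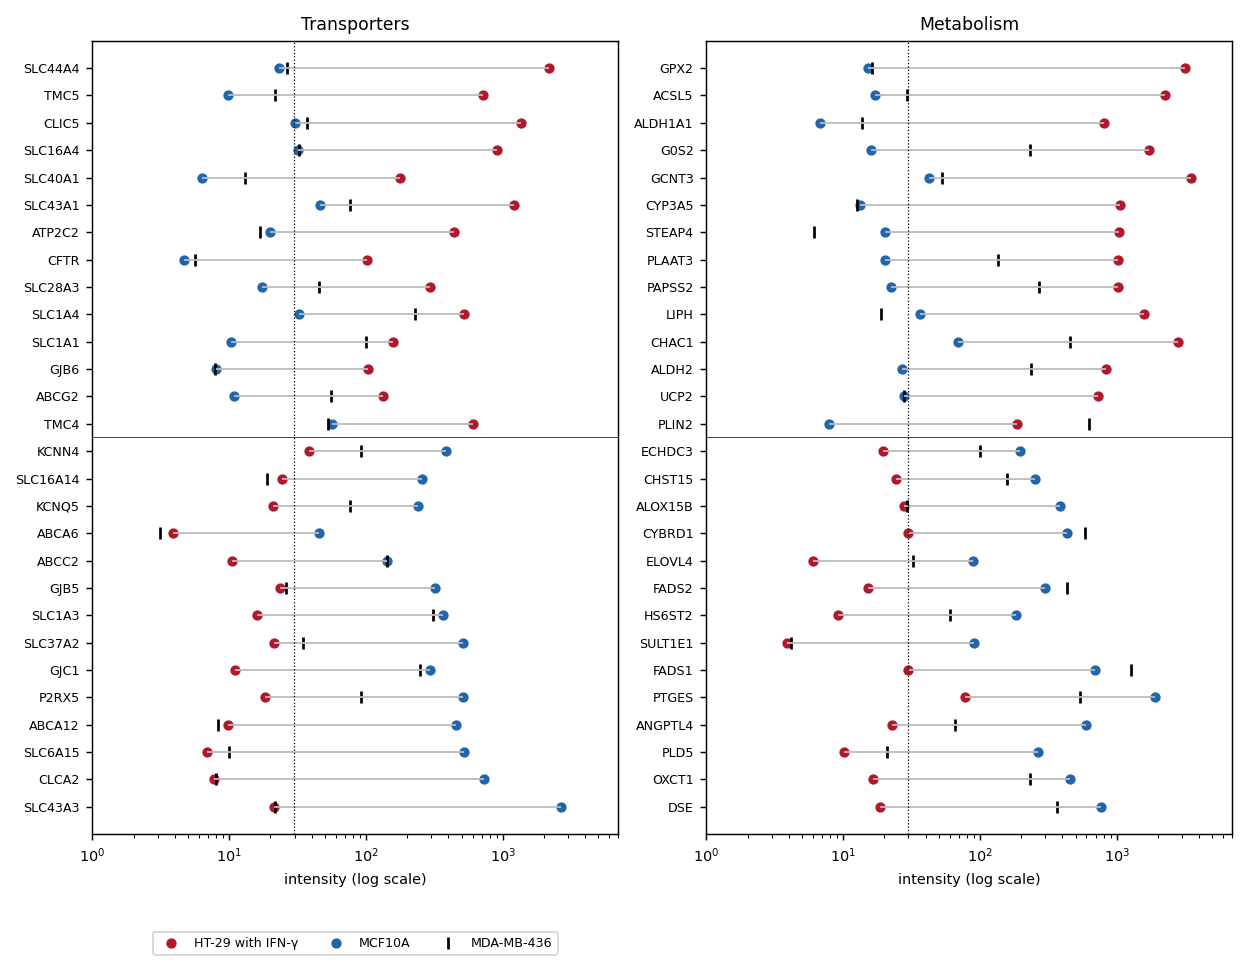
Intensity (x axis, log scale) on each array for the 14 transporter genes (left) and 14 metabolism genes (right) with the largest counted differences in each direction; red points are HT-29 with IFN-γ, blue points MCF10A, black ticks MDA-MB-436, and the dotted line is the background of 29.9. SLC43A3 runs from 21.3 in HT-29 to 2659 in MCF10A, and ACSL5 from 17.1 in MCF10A to 2246 in HT-29.

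Metabolic enzymes were measured for 1075 genes, of which 808 were above background, 61 were counted as higher in HT-29 and 64 as lower. The median log2 difference was -0.10, against 0.11 over all genes. By share, 5.67% were higher and 5.95% lower, beside 3.63% and 3.53% over all genes outside the interferon-linked list. Lists of the mitochondrion and of lipid and nucleotide synthesis had negative medians, and lists of detoxification held more higher than lower members.

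Of 86 genes of fatty acid uptake, storage and oxidation, 7 were higher and 8 lower. ACSL5, which joins long fatty acids to coenzyme A and is known for its high level in intestine, was at 2246 in HT-29 versus 17.1 in MCF10A, at least 75.1-fold higher. G0S2, an inhibitor of the lipase that opens fat droplets, was at 1711 in HT-29 versus 16 in MCF10A, at least 57.2-fold higher, and LIPH, which makes lysophosphatidic acid, at 1594 in HT-29 versus 36.7 in MCF10A, 43.4-fold higher. All 3 were at or near background in MCF10A. The lipid droplet coat gene PLIN2 was at 187 versus 7.86 (at least 6.24-fold higher) and higher still in MDA-MB-436 (628), and GPAT3, which starts triglyceride synthesis, at 417 versus 47.5 (8.77-fold higher). Lower in HT-29 were ANGPTL4, an inhibitor of lipoprotein lipase, at 22.9 versus 594 (at least 19.9-fold lower), and OXCT1, the enzyme that lets cells burn ketone bodies, at 16.6 versus 457 (at least 15.3-fold lower). The fatty acid binding gene FABP5 was at 51.3 versus 391 (7.63-fold lower).

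Fatty acid and sterol synthesis had 0 of 50 genes higher and 6 lower, with a median of -0.58. The desaturases that make polyunsaturated fatty acids led: FADS1 was at 29.7 in HT-29 versus 695 in MCF10A, at least 23.2-fold lower, and FADS2 at 15.3 in HT-29 versus 299 in MCF10A, at least 9.998-fold lower. Both were brighter still in MDA-MB-436, at 1266 and 429, so HT-29 was the low line of the 3. The stearoyl desaturase SCD5 was at 34.1 versus 196 (5.74-fold lower), while its relative SCD was at 1536 versus 2039 (1.33-fold lower) and the fatty acid synthase FASN at 229 versus 459.9 (2.01-fold lower), both not counted.

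Among 141 genes of phospholipids, sphingolipids and eicosanoids, 10 were higher and 8 lower. PLAAT3, a phospholipase and acyltransferase, was at 1021 in HT-29 versus 20.4 in MCF10A, at least 34.1-fold higher; other members of its family respond to interferon, and it was not on the list set aside. The secreted phospholipase PLA2G2A was at 270.1 versus 16.9 (at least 9.03-fold higher), and the cytosolic phospholipase PLA2G4A at 45.1 versus 275 (6.09-fold lower). Downstream of these, PTGES, which makes prostaglandin E, was at 78 in HT-29 versus 1912 in MCF10A, 24.5-fold lower, and the lipoxygenase ALOX15B at 27.9 versus 382, at least 12.8-fold lower. Another lipoxygenase, ALOX5, was counted as higher, at 117 versus 10.4 (at least 3.91-fold higher). PTGS2, the inducible cyclooxygenase, and HPGD, which breaks prostaglandins down, were not counted, at 67.5 versus 30.5 and 86.3 versus 112. The desaturase of ceramide synthesis DEGS1 was at 276 versus 1682, 6.09-fold lower.

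In glucose metabolism, 6 of 79 genes were higher and 5 lower, and 5 named glycolytic enzymes were not counted. LDHA was at 3707 versus 4705 (1.27-fold lower), LDHB at 3590.1 versus 3321 (1.08-fold higher), PKM at 1681 versus 1979 (1.18-fold lower), HK1 at 375 versus 479 and HK2 at 352 versus 255. FBP1, an enzyme of glucose synthesis, was at 184 in HT-29 versus 10.7 in MCF10A, at least 6.14-fold higher, and PCK2, the mitochondrial enzyme of the same route, at 1149 in HT-29 versus 143 in MCF10A, 8.01-fold higher, while the cytosolic form PCK1 was under background in both lines. HKDC1, a hexokinase relative, was at 409 versus 25.8 (at least 13.7-fold higher), and GFPT1, which opens the hexosamine route to protein glycosylation, at 3737 versus 789 (4.74-fold higher). Some enzymes around glycogen were on the lower side. The phosphorylase PYGL was at 140.0 in HT-29 versus 910.3 in MCF10A (6.5-fold lower), the branching enzyme GBE1 at 65.5 in HT-29 versus 411 in MCF10A (6.27-fold lower), and PGM1, which links glycogen to glycolysis, at 161 in HT-29 versus 945 in MCF10A (5.86-fold lower). The fructokinase KHK was at 39.3 versus 233 (5.94-fold lower).

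The 116 genes of the citric acid cycle and respiratory chain had a median of -0.52 and quartiles of -0.89 and -0.10, against -0.39 and 0.53 over all genes, and 2 were counted, both higher. At a fold of 2 the same list had 3 genes higher and 24 lower. At that fold, 1467 of all 14410 genes were higher and 1454 lower. UCP2, an inner membrane carrier named for uncoupling, was at 728 in HT-29 versus 27.7 in MCF10A, at least 24.3-fold higher, and was at 27.8 in MDA-MB-436. ME3, the mitochondrial malic enzyme, was at 115 versus 16.7 (at least 3.85-fold higher). Nucleotide enzymes had 0 of 90 higher and 3 lower, with a median of -0.38: adenosine deaminase, ADA, was at 94.7 versus 688 (7.26-fold lower), and PRPS2, which makes the sugar phosphate for nucleotides, at 117 versus 784 (6.7-fold lower). TYMS, which makes thymidylate, was at 606 versus 1259.9 (2.08-fold lower), not counted.

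Amino acid, polyamine and one-carbon enzymes had 6 of 103 higher and 5 lower. Besides ASNS, the higher genes included CTH, which makes cysteine, at 412 in HT-29 versus 41.9 in MCF10A (9.82-fold higher), PHGDH, which starts serine synthesis, at 1688 in HT-29 versus 368 in MCF10A (4.59-fold higher), and the brain-type creatine kinase CKB at 555 versus 68.5 (8.1-fold higher). PHGDH was brighter in MDA-MB-436 (2451). AGMAT, an enzyme of agmatine breakdown, was at 358 versus 18.2 (at least 12-fold higher). OAT, which links ornithine and proline, was at 122 versus 805 (6.62-fold lower), CPS1, the first enzyme of the urea cycle, at 12.4 versus 101 (at least 3.38-fold lower), and the monoamine oxidase MAOA at 194 versus 811 (4.17-fold lower). ASS1, of the urea cycle, and NNMT, which methylates nicotinamide, were bright in both lines, at 3269 versus 2014 and 1462 versus 1606.

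Detoxification and retinoid enzymes had 12 of 141 members higher (8.51%) and 7 lower (4.96%). ALDH1A1, which makes retinoic acid and is a known stem cell marker, was at 807 in HT-29 versus 6.81 in MCF10A, at least 27-fold higher. ALDH2, the mitochondrial acetaldehyde enzyme, was at 832 in HT-29 versus 26.9 in MCF10A, at least 27.8-fold higher. CYP3A5, a drug-oxidising enzyme of gut and liver, was at 1049 in HT-29 versus 13.3 in MCF10A, at least 35.1-fold higher, with 12.7 in MDA-MB-436, although probes of CYP3A relatives can share signal. PAPSS2, which makes the sulfate donor, was at 1018 versus 22.2, at least 34-fold higher, and RBP4, the retinol binding protein, at 127 versus 6.09 (at least 4.24-fold higher). The lower members included MGST3, a membrane glutathione transferase, at 339.7 versus 2268 (6.68-fold lower), LRAT, which stores retinol as ester, at 13.6 versus 90.3 (at least 3.02-fold lower), and SULT1E1, the estrogen sulfotransferase, at 3.88 versus 90.6 (at least 3.03-fold lower).

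Redox, heme and iron genes had 9 of 127 higher and 7 lower. The largest difference was that of GPX2, the glutathione peroxidase of gut epithelium, at 3133 in HT-29 versus 15.2 in MCF10A, at least 105-fold higher. CHAC1, HEPH and STEAP4, given above, were also counted as higher. GPX8, of the same peroxidase family, was at 32.5 versus 317 (9.76-fold lower), and the biliverdin reductase BLVRA at 62.9 versus 289 (4.59-fold lower). Glycosyltransferases had 9 of 142 higher and 15 lower. GCNT3, which branches mucin-type sugars, was at 3492 in HT-29 versus 42.6 in MCF10A, 81.9-fold higher, the largest of the list, and GALNT12, which starts such chains, at 692 versus 48.9, 14.1-fold higher. Lower genes included enzymes of sulfated matrix sugars: DSE was at 18.7 versus 768 (at least 25.7-fold lower), CHST15 at 24.2 versus 252 (at least 8.43-fold lower) and HS6ST2 at 9.11 versus 184 (at least 6.17-fold lower). Members of both kinds also went the other way. The sulfotransferase HS3ST1 was at 290 versus 43.2 (6.71-fold higher), and GALNT18, of the family of GALNT12, at 20.4 versus 110 (at least 3.68-fold lower).

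**Figure D4:**
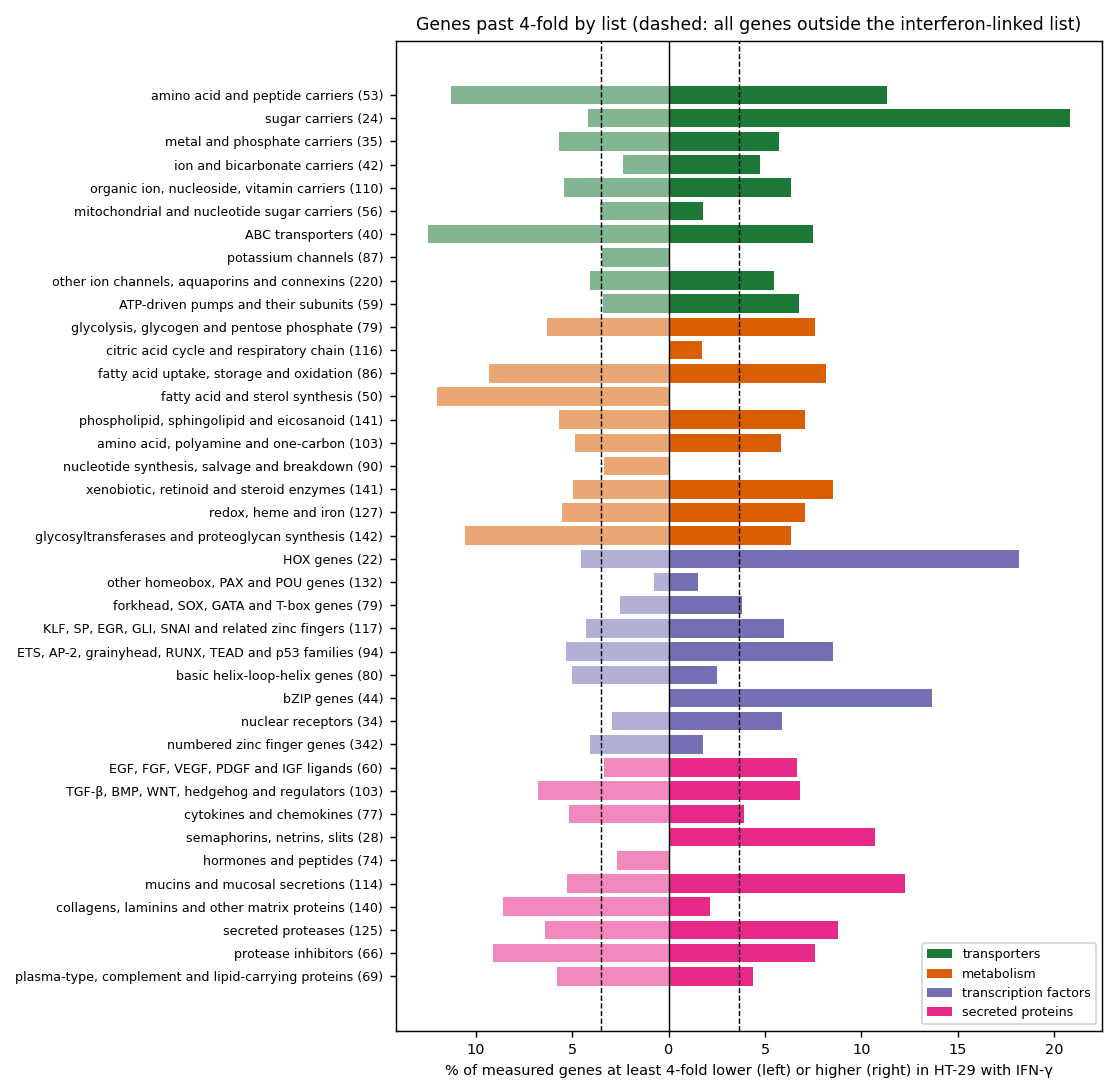
Percentage of the measured genes of each of 39 lists that were counted as lower (left, pale) or higher (right, full colour) on the HT-29 array compared with MCF10A, with the number of measured genes in brackets; dashed lines show all genes outside the interferon-linked list, 3.53% and 3.63%. Sugar carriers reach 20.8% on the higher side and fatty acid and sterol synthesis 12% on the lower side. The share of the sugar carriers is 5 of 24 genes, and with a fold of 8 the list had 1 higher.

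Of 944 transcription factor genes, 676 were above background, 40 were counted as higher (4.24%) and 33 as lower (3.50%), beside 3.63% and 3.53% over all genes outside the interferon-linked list. The median log2 difference was 0.18.

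The HOX list had 4 of 22 genes higher and 1 lower. HOXB9, a posterior HOXB gene, was at 2283 in HT-29 versus 36.8 in MCF10A, 62.1-fold higher, and at 38.9 in MDA-MB-436. Its cluster neighbours HOXB6 and HOXB5 were far dimmer, at 106 versus 17.8 (at least 3.54-fold higher) and 95.9 versus 8.5 (at least 3.21-fold higher), and HOXB13 was at 44 versus 5.79, under the brightest olfactory receptor gene. HOXC9 went the other way, at 18.2 versus 109.5 (at least 3.66-fold lower). Other homeobox, PAX and POU genes had 2 of 132 higher and 1 lower, SATB1 being at 169 versus 30.4 (5.57-fold higher) and ONECUT2 at 181 versus 42.7 (4.23-fold higher).

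Factors known from gut endoderm, which were on no list of their own, had unequal differences. CDX2, the defining factor of intestinal epithelium, was at 74.8 versus 53.2 (1.41-fold higher) and its relative CDX1 at 34.8 versus 22, both not counted. The CDX2 values, with 51.9 in MDA-MB-436, lay under the brightest olfactory receptor gene, near the limit of what the arrays can show. HNF4G, a nuclear receptor of intestinal epithelium, was at 445 in HT-29 versus 8.69 in MCF10A, at least 14.9-fold higher, and NR5A2, a nuclear receptor of gut and pancreas, at 124 in HT-29 versus 7.14 in MCF10A, at least 4.14-fold higher. The pioneer factor FOXA1 was at 1031 in HT-29 versus 165 in MCF10A (6.24-fold higher) and its relative FOXA2 at 94 versus 24.1 (at least 3.14-fold higher), the second not counted for its measured ratio. FOXQ1 was at 329 versus 55.2 (5.96-fold higher). The forkhead, SOX, GATA and T-box list, which holds these FOX genes, had 3 of 79 members higher (3.80%) and 2 lower (2.53%). Its lower members were LEF1, at 22.7 versus 222 (at least 7.43-fold lower), and SOX7, at 8.97 versus 40.1 (at least 1.34-fold lower). GATA3 of that list was at 64.9 versus 99.1, not counted. GATA6, a gut factor, and SOX9, a factor of crypt cells, were at 510.2 versus 181 (2.82-fold higher) and 204 versus 71.5 (2.85-fold higher), both not counted. ASCL2 was under background in both lines, and ATOH1, the secretory lineage factor, was at 35.2 versus 12.8.

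Zinc finger factors of the KLF, GLI and related families had 7 of 117 higher and 5 lower, with a median of 0.34. SNAI2, a repressor known from basal and mesenchymal cells, was at 12.4 in HT-29 versus 4078 in MCF10A, at least 136-fold lower, the largest measured lower difference of all genes, with 810.0 in MDA-MB-436. KLF4, a factor of mature epithelium, was at 800.0 in HT-29 versus 53.1 in MCF10A, 15.1-fold higher, while its relative KLF5 was at 2180.4 in HT-29 versus 1686 in MCF10A (1.29-fold higher), not counted. KLF7 was at 40.1 in HT-29 versus 704 in MCF10A, 17.6-fold lower. OVOL1, a repressor of epithelia, was at 207 versus 14.2 (at least 6.92-fold higher), and GLI3, a hedgehog factor, at 14.9 versus 323 (at least 10.8-fold lower). Numbered zinc finger genes had 6 of 342 higher and 14 lower, with ZNF140 at 256 versus 28.7 (at least 8.56-fold higher).

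Among ETS, AP-2, SMAD and related families, 8 of 94 were higher and 5 lower. The largest difference in each direction was that of GRHL2 and of TFCP2L1. GRHL2 was at 489 in HT-29 versus 10.4 in MCF10A (at least 16.3-fold higher), and TFCP2L1 at 36.9 in HT-29 versus 1512 in MCF10A (41.0-fold lower). EHF and SPDEF, ETS factors of secretory epithelia, were at 1574 versus 251 (6.27-fold higher) and 219 versus 32.7 (6.7-fold higher), and the related ELF3 at 112 versus 36.7 (3.06-fold higher), not counted. SMAD6, an inhibitor of BMP signals, was at 244 in HT-29 versus 24.5 in MCF10A, at least 8.15-fold higher, and SMAD4, the common partner of the pathway, at 144 in HT-29 versus 673 in MCF10A, 4.66-fold lower; in MDA-MB-436 SMAD4 was at 134, as low as in HT-29. WWTR1, which encodes the Hippo coactivator TAZ, was under background in HT-29, at 26.2 in HT-29 versus 742 in MCF10A, at least 24.8-fold lower, and was at 769 in MDA-MB-436. TFAP2C and TFAP2A, factors of mammary and skin epithelium, were at 15.8 versus 167 (at least 5.59-fold lower) and 170.3 versus 635 (3.73-fold lower), the second not counted.

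Of 80 helix-loop-helix genes, 2 were higher and 4 lower. MXD1, an antagonist of MYC at shared sites, was at 1194 in HT-29 versus 207 in MCF10A (5.77-fold higher), and MYC itself at 1215 in HT-29 versus 1629.6 in MCF10A (1.34-fold lower), not counted. ID3, an inhibitor of such factors, was at 38.1 versus 469 (12.3-fold lower), and TCF4, one of its partners, at 8.56 versus 159 (at least 5.32-fold lower). TWIST1 was at 38.2 versus 312 (8.17-fold lower).

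Of 44 bZIP genes, 6 were counted as higher (13.6%) and 0 as lower, and the median was 0.74. DDIT3, a stress factor downstream of ATF4, was at 1511 in HT-29 versus 60.1 in MCF10A, 25.1-fold higher, and ATF3, of the same response, at 409 in HT-29 versus 34.3 in MCF10A, 11.9-fold higher. The MDA-MB-436 array had 781 and 175, so MCF10A was the low line of the 3. JUN, a subunit of AP-1, was at 587 versus 98.5 (5.96-fold higher), and BACH1, a heme-sensing repressor, at 1266 versus 223 (5.67-fold higher). CREB3L1, a membrane-bound factor of secretory cells, was at 192 versus 22.6 (at least 6.4-fold higher).

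NR3C1, which encodes the glucocorticoid receptor, was under background in HT-29, at 15.5 in HT-29 versus 481 in MCF10A, at least 16.1-fold lower. It was at 504 in MDA-MB-436, so the low level belonged to HT-29 alone of these arrays. The medium of MCF10A held the receptor's ligand hydrocortisone, and its part in the result was not tested. Nuclear receptors had 2 of 34 higher and 1 lower in all, with a median of 0.44.

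**Figure D5:**
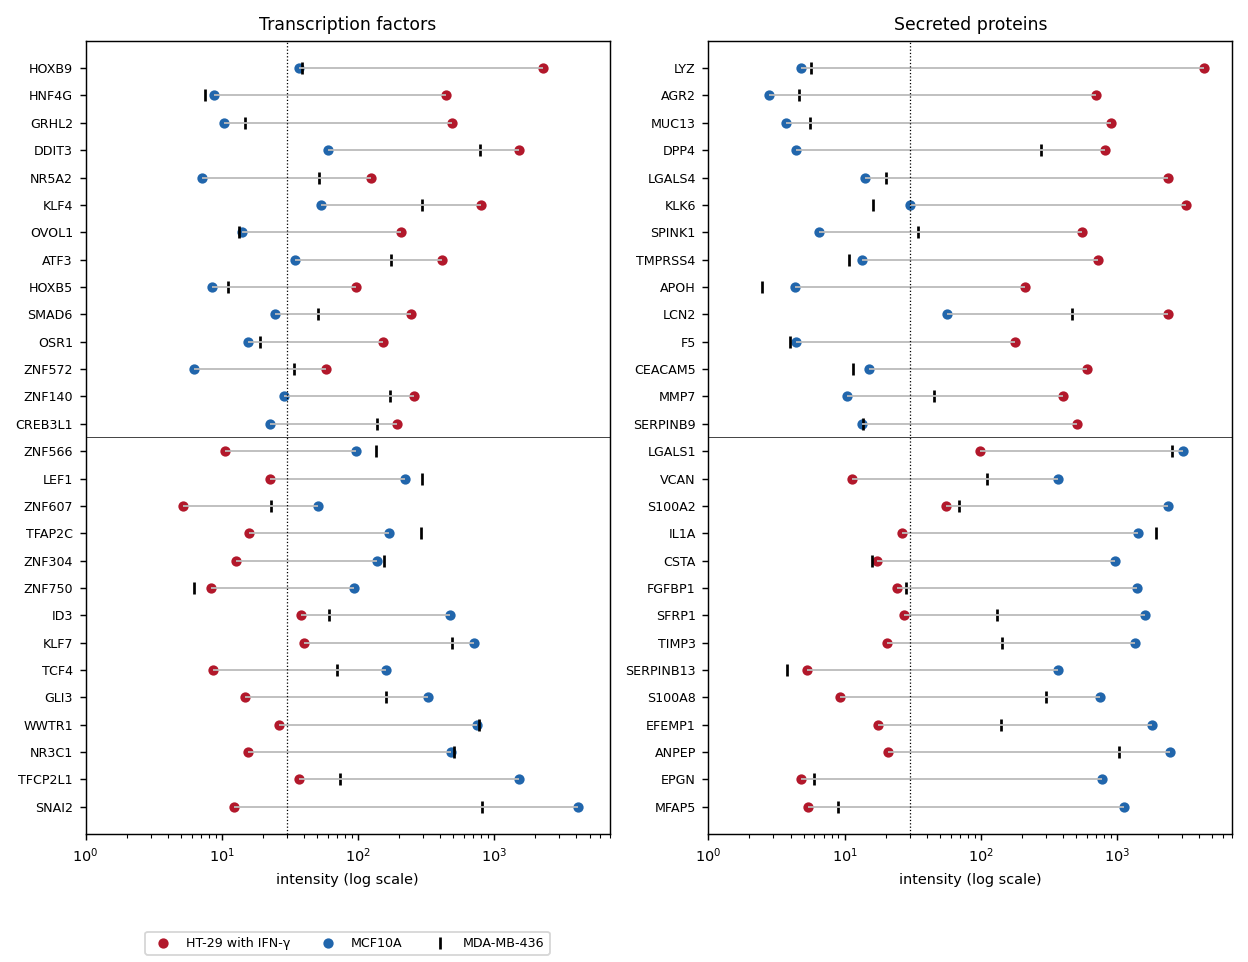
Intensity (x axis, log scale) on each array for the 14 transcription factor genes (left) and 14 secreted protein genes (right) with the largest counted differences in each direction; red points are HT-29 with IFN-γ, blue points MCF10A, black ticks MDA-MB-436, and the dotted line is the background of 29.9. HOXB9 runs from 36.8 in MCF10A to 2283 in HT-29, and MFAP5 from 5.38 in HT-29 to 1118 in MCF10A.

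Of 856 genes on the secreted protein lists, which also hold some surface proteins of the same families, 397 were above background. Of the 856, 53 were counted as higher (6.19%) and 51 as lower (5.96%). The shares over all genes outside the interferon-linked list were 3.63% and 3.53%. The median log2 difference was 0.19, and it was near 0 with quantile normalization.

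Growth factors had 4 of 60 members higher and 2 lower. The EGF-family ligands epiregulin and epigen were exchanged: EREG was at 3255 in HT-29 versus 266 in MCF10A (12.3-fold higher), and EPGN at 4.75 in HT-29 versus 773 in MCF10A (at least 25.8-fold lower). TGFA, another ligand of that receptor, was at 220.4 versus 213. The heparin-binding factor MDK was at 857 in HT-29 versus 27.1 in MCF10A, at least 28.6-fold higher, and higher in MDA-MB-436 (1668). VEGFA, the vessel growth factor, was at 1601 in HT-29 versus 238 in MCF10A, 6.73-fold higher. GAS6, the ligand of the TAM receptors, was at 31.6 versus 364 (11.5-fold lower).

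In the TGF-β, BMP, WNT and hedgehog list, 7 of 103 were higher and 7 lower. Among the ligands, BMP4 was at 449 in HT-29 versus 15.3 in MCF10A (at least 15-fold higher) and SHH, sonic hedgehog, at 804 in HT-29 versus 49.99 in MCF10A (16.1-fold higher). INHBE, an activin subunit and known stress response gene, was at 120.3 versus 17.3 (at least 4.02-fold higher). The largest difference on the lower side was that of SFRP1, a secreted WNT antagonist, at 27.2 in HT-29 versus 1596 in MCF10A, at least 53.4-fold lower. FSTL3, which binds activin, was at 66.8 versus 1167 (17.5-fold lower), the protease HTRA1 at 46.5 versus 735 (15.8-fold lower) and LTBP1, which holds latent TGF-β in the matrix, at 31.2 versus 452 (14.5-fold lower). IGFBP4, which binds insulin-like growth factors, was higher, at 847 versus 123 (6.91-fold higher). TGFB1 and TGFB2 were not counted, at 139 versus 333 and 269 versus 196.

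Outside the interferon-linked chemokines, 3 of 77 cytokine genes were higher and 4 lower. TNFSF15, a ligand of lymphocyte receptors, was at 901 in HT-29 versus 57.7 in MCF10A, 15.6-fold higher, and CCL22, which attracts regulatory T cells, at 363 in HT-29 versus 35.3 in MCF10A, 10.3-fold higher. The largest difference of this list was that of IL1A, at 26.5 in HT-29 versus 1416 in MCF10A, at least 47.3-fold lower, with 1933 in MDA-MB-436. IL1B was at 14.4 versus 113 (at least 3.78-fold lower). IL18, a cytokine known in gut epithelium, was lower in HT-29, at 99.4 in HT-29 versus 1243 in MCF10A, 12.5-fold lower. IL6 was under background in both lines, and CXCL8 was at 79.6 versus 69.3.

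Mucosal and antimicrobial genes had 14 of 114 members higher (12.3%) and 6 lower (5.26%). Lysozyme, LYZ, which breaks bacterial walls, was at 4319.6 in HT-29 versus 4.82 in MCF10A, at least 144-fold higher, the largest measured difference of all genes outside the interferon-linked list. The disulfide isomerase AGR2 was at 701 versus 2.78 (at least 23.4-fold higher), the membrane mucin MUC13 at 898 versus 3.73 (at least 30.0-fold higher), the galectin LGALS4 at 2372 versus 14 (at least 79.3-fold higher) and the iron-withholding protein LCN2 at 2348 versus 56.1 (41.8-fold higher). On the lower side were S100A2, at 55.3 versus 2364 (42.7-fold lower), the calprotectin subunit S100A8, at 9.29 versus 753 (at least 25.2-fold lower), LGALS1, another galectin, at 98.6 versus 3039.6 (30.8-fold lower), and the elastase inhibitor PI3, at 57.1 versus 845 (14.8-fold lower). Of the trefoil peptides, TFF3 was counted as higher although dim, at 72.6 versus 15.9 (at least 2.43-fold higher), and TFF1, at 57 versus 20.7, was not counted.

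Of 125 secreted and surface proteases, 11 were higher and 8 lower. The largest difference of this list was that of KLK6, at 3182 in HT-29 versus 30.2 in MCF10A, 105-fold higher. TMPRSS4, a membrane serine protease, was at 723 in HT-29 versus 13.5 in MCF10A, at least 24.2-fold higher, and its relative TMPRSS2 at 144 in HT-29 versus 6.19 in MCF10A, at least 4.81-fold higher. MMP7, the metalloprotease of glandular epithelium, was at 399 versus 10.5 (at least 13.3-fold higher). Both plasminogen activators were lower. PLAT was at 24.3 in HT-29 versus 552 in MCF10A (at least 18.5-fold lower) and PLAU at 29.5 in HT-29 versus 179 in MCF10A (at least 5.97-fold lower), and MDA-MB-436 had 1026 for PLAU. Tissue factor, F3, was at 30.5 versus 302 (9.88-fold lower), and coagulation factor V, F5, at 177 versus 4.39 (at least 5.93-fold higher).

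Of 66 protease inhibitors, 5 were higher and 6 lower. SPINK1, the trypsin inhibitor of pancreas and gut, was at 553 in HT-29 versus 6.53 in MCF10A, at least 18.5-fold higher, and SERPINB9, an intracellular inhibitor of granzyme B, at 509 in HT-29 versus 13.5 in MCF10A, at least 17-fold higher. The metalloprotease inhibitors differed by member: TIMP3 was at 20.5 in HT-29 versus 1354 in MCF10A (at least 45.3-fold lower), TIMP4 at 232 in HT-29 versus 17.3 in MCF10A (at least 7.77-fold higher) and TIMP1 at 3107 in HT-29 versus 3991 in MCF10A (1.28-fold lower), the last not counted. SERPINB13, a keratinocyte serpin, was at 5.25 versus 366 (at least 12.2-fold lower).

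Collagens, laminins and other matrix genes had 3 of 140 members higher (2.14%) and 12 lower (8.57%), although the median over all members was 0.08, a sign that turned with quantile normalization. MFAP5, a microfibril protein, was at 5.38 in HT-29 versus 1118 in MCF10A, at least 37.4-fold lower, and the fibulin EFEMP1 at 17.6 in HT-29 versus 1807 in MCF10A, at least 60.4-fold lower. Both were far lower in MDA-MB-436 than in MCF10A, at 8.91 and 140.3. The proteoglycan VCAN was at 11.3 versus 369.7 (at least 12.4-fold lower), fibrillin 2, FBN2, at 12.7 versus 366 (at least 12.2-fold lower) and fibronectin, FN1, at 15.6 versus 401 (at least 13.4-fold lower). NPNT, a basement membrane ligand of integrins, was higher, at 287 versus 21 (at least 9.59-fold higher), as was the link protein HAPLN3, at 305 versus 29.1 (at least 10.2-fold higher).

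Plasma-type proteins and 2 surface peptidases placed with them had 3 of 69 higher and 4 lower. The peptidases of the brush border were exchanged: DPP4, which trims incretins and chemokines, was at 807 in HT-29 versus 4.4 in MCF10A, at least 27-fold higher, whereas ANPEP was at 20.6 in HT-29 versus 2429 in MCF10A, at least 81.2-fold lower. APOH, a lipid-binding plasma protein, was at 211 versus 4.29, at least 7.04-fold higher. The complement gene C3 was at 71.1 in HT-29 versus 1861 in MCF10A, 26.2-fold lower, and at 1948 in MDA-MB-436, so it was low in HT-29 alone of the 3 arrays. FGFBP1, which releases fibroblast growth factors from the matrix, was at 24.1 versus 1390.2, at least 46.5-fold lower. The apolipoprotein gene APOB was under background in both lines.

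Hormone and peptide genes had 0 of 74 higher and 2 lower. Neuromedin U, NMU, was at 9.14 in HT-29 versus 205 in MCF10A, at least 6.85-fold lower, and the stanniocalcin STC2 at 14.2 versus 153 (at least 5.12-fold lower). The receptor gene NMUR2 lay on no list but was among the 10 largest differences on the higher side, at 1992 in HT-29 versus 10.6 in MCF10A, at least 66.6-fold higher, with 13.2 in MDA-MB-436. So the receptor was above background in HT-29 alone of the 3 arrays, and the peptide in both breast lines, with 145 in MDA-MB-436. Guidance genes had 3 of 28 higher and 0 lower, with NTN4, a netrin of basement membranes, at 518 versus 82.4 (6.28-fold higher) and SEMA4G at 138 versus 17.5 (at least 4.61-fold higher).

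Other genes among the 10 largest differences in either direction were on no list. Higher in HT-29 were the surface proteins TM4SF4, at 1815 in HT-29 versus 8.94 in MCF10A (at least 60.7-fold higher), and TSPAN8, at 738 in HT-29 versus 3.86 in MCF10A (at least 24.7-fold higher), and the ubiquitin ligase TRIM31, at 1968 in HT-29 versus 11 in MCF10A (at least 65.8-fold higher). Lower were the cell cycle genes CCND2, at 5.05 in HT-29 versus 706 in MCF10A (at least 23.6-fold lower), and CCNA1, at 11 in HT-29 versus 1281 in MCF10A (at least 42.8-fold lower), the calcium binding gene CALB1, at 10.8 in HT-29 versus 1420.3 in MCF10A (at least 47.5-fold lower), and BNIP3, a mitophagy receptor, at 6.31 in HT-29 versus 755 in MCF10A (at least 25.2-fold lower). CCND2 and BNIP3 were bright in MDA-MB-436 too, at 446 and 1439, whereas CCNA1 and CALB1 were at 42.8 and 77.2.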

How the data were processed

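Total RNA of each line was labelled with biotin and read on 1 exon array, as the labels' protocols state. The authors deposited an intensity per transcript cluster and array on a linear scale; the summary method, background correction and normalization are not given in the sources used here, and the submitters' processing notes list the build hg19. Of 18708 clusters, 14733 had a single symbol, matched by identifier to RefSeq (GRCh38.p14) for 14705, while 2875 had several symbols and 1100 none, and these were left out. The brightest cluster of a gene was used. Differences are log2 HT-29 minus MCF10A.

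Lists took symbols by family pattern, a gene going to the first list that took it. The epithelial sodium channel subunits (SCNN1 genes) were missed by these patterns. Members and lists were chosen with earlier results of these data known. Genes named follow a rule: the 10 largest counted differences in each direction outside the interferon-linked list, up to 5 in each direction per list, and 86 single genes, of which 17 were not analysed here. Not every gene so chosen is printed. The counting step was tested on simulated data. Alternatives were 2 normalizations, 2 background filters, folds of 2 and 8, the median over clusters, and a background floor. Each line had 1 array, and that number limits the precision. Values were computed in Python 3.11.15 with pandas 2.3.3 and numpy 2.4.6 and plotted with matplotlib 3.10.9.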

Additional observations from a re-analysis of the deposited data

How the results depend on the processing

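With a fold of 2, 1467 genes were higher and 1454 lower, and with a fold of 8, 332 and 237. By theme, a fold of 2 gave 76 higher and 78 lower transporters, 115 and 183 metabolic genes, 134 and 75 transcription factors and 90 and 92 secreted proteins. A fold of 8 gave 24 and 15 transporters, 37 and 16 metabolic genes, 15 and 17 transcription factors and 30 and 40 secreted proteins. Under the other 6 alternatives, the counts over all genes and by theme stayed within 1.5 times. Quantile normalization gave 581 higher and 508 lower genes, moved the median of all genes by -0.12 on the log2 scale and turned the sign of 13 of the 39 list medians; median centring and the median over clusters turned 0. Setting values under background to the background left 493 higher and 398 lower, and 239 of the 285 named genes that were counted. No counted gene that the rule named changed direction with quantile normalization or with the median over clusters. The filters and the other folds leave each difference as it is. Median centring and the background floor could not turn a counted difference, so they are no check of direction. No paired analysis was possible because each line had 1 array. Genes between the background of 29.9 and the brightest olfactory receptor value of 101 are limited by signal; a filter at the 99th percentile left 572 higher and 470 lower.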
